A study of Drosophila melanogaster with 4 samples.

Results

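The regions described here are the Su(var)3-7 clusters on the euchromatic part of 2L, the left arm of chromosome 2 of *Drosophila melanogaster*. They are the 1341 regions of the deposited replicate-set list that start at or below position 20011544 of 2L on FlyBase release 5, of 11476 regions in the whole list (11.7%). This limit leaves out the 3 Mb of the arm next to the centromere. Of the 1341 members, 1340 were marked as enriched and 1 as depleted. The lists of the single replicates held 547 clusters (replicate 1) and 494 clusters (replicate 2) under the same limit, of 5994 and 5617 in all.

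Chromatin was immunoprecipitated with the anti-Su(var)3-7 antibody Q3448 from nuclei of wild-type Oregon-R larvae of the third instar and sequenced in 2 ChIP libraries. The labels pair each with 1 of 2 input libraries, and all 4 libraries share the strain, genotype and stage. The labels do not say whether the replicates came from separate collections of larvae, so the spread between them may be technical. Larval tissues were homogenised together, so weaker binding in all nuclei and binding in fewer nuclei cannot be told apart.

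Su(var)3-7 is a zinc-finger protein that binds HP1 and was found through mutations that suppress position-effect variegation, the patchy silencing of a gene placed next to heterochromatin. It is known mainly from the heterochromatin around centromeres, from chromosome 4 and from telomeres, and also stains a limited number of bands on the euchromatic arms of polytene chromosomes. The question put to the 2L arm was therefore how much of the protein's signal lay in euchromatin, where along the arm it lay, and which of the regions both replicates share.

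Each region has a value that the authors assigned to it, read here as the log2 enrichment of ChIP over input, so that 1 stands for a doubling. Cover is the percent of bases under at least 1 enriched cluster. A member is called found in a replicate when a cluster of that replicate's own list overlaps it by at least 1 bp. The lists give no read counts, so the depth behind a value is unknown. With 2 replicates an exact test cannot give a two-sided p under 0.5, and clusters within a list are not replicates, so no test was made and values are given for each replicate.

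The arm was sparsely covered. Clusters lay over 6.51% of its bases in replicate 1 and 5.56% in replicate 2, which gives 6.03% ± 0.67 (SD, n = 2). The centromere-proximal 3 Mb of 2L, left out here, were 37.6% and 35.5% covered, so the ranges of the replicates did not overlap. In the replicate-set list, which defines the members, cover was 14.6% on the arm and 49.8% in the proximal 3 Mb, a smaller contrast. The median enrichment of clusters was also lower on the arm, at 0.59 and 0.61 on the log2 scale in replicates 1 and 2 against 0.77 and 0.75 in the proximal 3 Mb.

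The same part of other chromosome arms differed less from 2L. The 3L arm without its proximal 3 Mb was 7.60% and 6.28% covered, and the 3R arm without its proximal 3 Mb 5.68% and 4.85%, ranges that both overlap that of 2L. The X arm without its proximal 4 Mb was 7.57% and 6.93% covered, above 2L in both replicates. In both replicates 2L therefore lay below 3L and X and above 3R. Relative to 3L and 3R combined, cover of 2L was 0.99-fold in replicate 1 and 1.01-fold in replicate 2. X also had the higher median enrichment of clusters, at 0.70 and 0.71. These differences were not tested.

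**Figure D1:**
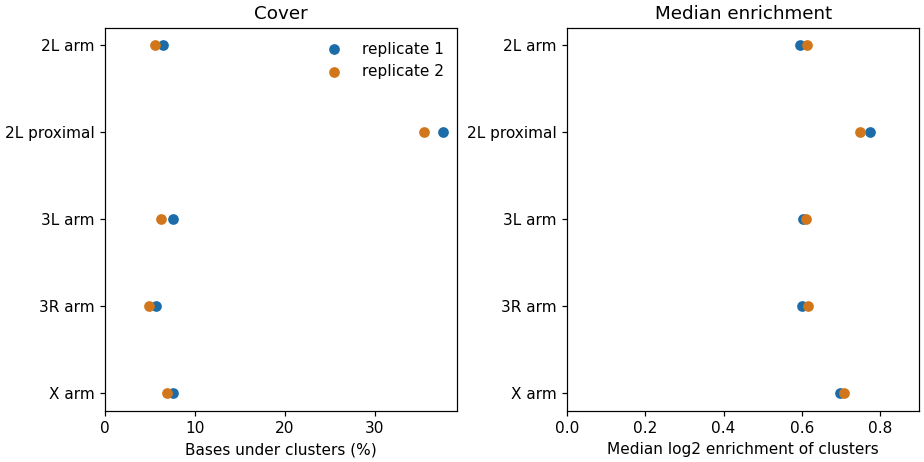
Cover (percent of bases under enriched clusters, left) and median log2 enrichment of clusters (right) on the 2L arm, the proximal 3 Mb of 2L, and the 3L, 3R and X arms outside their proximal stretches. Each point is 1 replicate. The 2L arm lies at 6.51% and 5.56%, among the other arms and far below the proximal 3 Mb of the same chromosome arm.

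Along 2L the cover was high at both ends and low in between. In windows of 1 Mb it was highest next to the proximal limit, between 19000001 and 20011544, at 22.4% in replicate 1 and 15.0% in replicate 2. The most distal window, from 1 to 1000000, was second with 14.4% and 13.3%. The window from 18000001 to 19000000 came next with 11.1% and 8.17%. The other windows lay between 1.71% and 7.46% by the mean of the replicates, and the median over all 20 windows was 4.81%.

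The least covered window by the mean of the replicates, from 17000001 to 18000000, had 2.07% and 1.35% in replicates 1 and 2. The window from 15000001 to 16000000 had 1.75% and 1.95%, and was the lowest in replicate 1. Between these 2, the window from 16000001 to 17000000 had 7.32% and 6.10%, so the bare stretch was interrupted. The longest stretch without a member, 334 kb from 16929306 to 17263167, lay mostly in the window from 17000001 to 18000000. Cover of the 1 Mb windows followed the same profile in both replicates, with Pearson's r = 0.97 and Spearman's rho = 0.92 over 20 windows. These windows come from the same pair of libraries and are described, not tested.

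The proximal 5 Mb of the arm had more cover than the distal 15 Mb, at 8.98% against 5.69% in replicate 1 and 6.55% against 5.22% in replicate 2. The ratio was 1.58 and 1.25, or 1.42 ± 0.23 (SD, n = 2). It rested on the 2 Mb next to the limit. With those 2 Mb left out, which was decided on after seeing the profile, it was 0.627, below 1. The arm therefore held no steady rise toward the centromere: cover rose in the last 2 Mb, after a stretch that was less covered than the distal part.

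**Figure D2:**
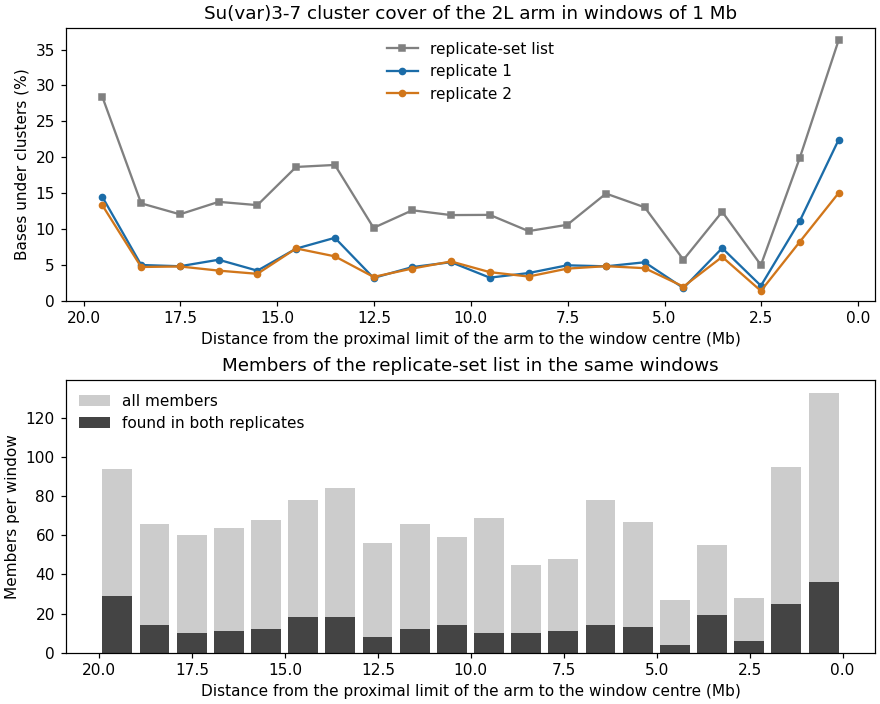
Top, percent of bases under clusters in windows of 1 Mb for replicate 1, replicate 2 and the replicate-set list, against the distance of the window's centre from the proximal limit of the arm (Mb). Bottom, members per window in the replicate-set list, with those found in both replicates in dark. The 3 profiles rise at both ends, to 14.4% and 13.3% in the most distal window and to 22.4% and 15.0% next to the proximal limit.

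At a resolution of 100 kb the signal was patchy. Of 200 windows, 37 had no cover in either replicate and 19 had no member, while 10 were covered to at least 20% in both replicates. Of these 10, 3 lay in the most distal 1 Mb and 4 in the 1 Mb next to the limit. The remaining 3 lay in the 18 Mb between.

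The most distal 1 Mb was uneven. Its outermost 100 kb had 1.43% cover in replicate 1 and none in replicate 2, and the first member of the arm, 2L:36490-38389, was found in neither replicate. The cover of that 1 Mb came mainly from the windows from 400001 to 500000 (29.9% and 29.8%), from 500001 to 600000 (27.0% and 26.1%) and from 800001 to 900000 (30.1% and 30.9%). In these 3 windows the replicates were less than 1 percentage point apart.

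The 1 Mb next to the limit differed in that replicate 1 had more cover than replicate 2 in all 9 of its 10 windows that had any. The window from 19100001 to 19200000 was 38.8% covered in replicate 1 and 26.5% in replicate 2, and that from 19400001 to 19500000 was 38.1% and 25.7% covered. One window there, from 19600001 to 19700000, held no member and no cover. In the most distal 1 Mb replicate 1 had more cover in 7 of 10 windows, and in the stretch between in 78 of the 144 windows with cover.

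**Figure D3:**
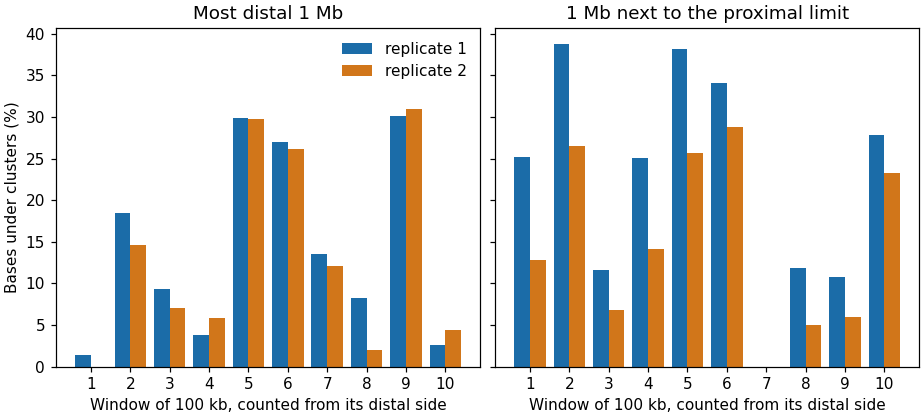
Percent of bases under clusters in windows of 100 kb, for the most distal 1 Mb of 2L (left) and the 1 Mb next to the proximal limit (right), numbered from the distal side. Blue bars are replicate 1 and orange bars replicate 2. At the distal end the 3 tallest windows reach like heights in both replicates, while next to the limit replicate 1 is the taller in every window with cover.

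Members tended to lie close together. Of the 1339 gaps between neighbouring enriched members, 807 (60.3%) were shorter than 5 kb and 360 (26.9%) shorter than 1 kb, with a median gap of 3253 bp. The 32 gaps longer than 100 kb lay at the other extreme. Joining members less than 5 kb apart gave 533 runs, of which 271 were single members and 77 held 5 or more, with 577 members among them.

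The 5 runs with the most covered bases lay in the distal 1 Mb or beyond 18.6 Mb. The largest, 2L:19484686-19589481, held 23 members over 105 kb, of which 10 were found in both replicates. Clusters of replicates 1 and 2 covered 38.9% and 33.5% of it, and its members had a median log2 enrichment of 0.43 with a highest of 0.90. The second, 2L:513630-581200, held 16 members over 67.6 kb, was 39.9% and 35.8% covered, and contained the most enriched member found in both replicates.

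The third, 2L:819976-885992, had 13 members over 66.0 kb and 43.0% and 44.2% cover. The fourth, 2L:18651749-18716490, had 14 members over 64.7 kb and 43.6% and 30.4% cover. The fifth, 2L:18998736-19073807, was the least shared of the 5, with 22 members, 2 of them found in both replicates, and 29.1% and 12.3% cover.

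Support by the replicates was low on the arm. Of the 1340 enriched members, 294 (21.9%) were found in both replicates, against 30.7% of the 11471 enriched clusters of the whole list. A further 368 members were found in 1 replicate, 212 in replicate 1 only and 156 in replicate 2 only, where the share over the whole list was 25.3%. The remaining 678 (50.6%) were found in neither, against 44.1% of the whole list. Of these 678, 368 were narrower than 1301 bp, and neither replicate list held a cluster that narrow. Similar shares were found in both replicates on the 3L arm (22.3%), the 3R arm (20.6%) and the X arm (22.1%), and a larger one in the proximal 3 Mb of 2L (47.4%). Because the replicate-set list rests on these same libraries, support describes the list and is no independent evidence.

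The members found in both replicates were wider and more enriched. Their widths had a median of 3373 bp and their log2 enrichments one of 0.54, and they held 40.9% of the bases of all enriched members. For members found in neither replicate the medians were 1262 bp and 0.41, and these members held 32.0% of the bases. Members found in 1 replicate were close to the latter in enrichment, with medians of 0.40 for either replicate, and lay between in width, at 1926 bp and 1894 bp.

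Support was higher at higher enrichment, though not in every step. Of 99 members with a value under 0.3, 6 (6.06%) were found in both replicates, and of 417 from 0.3 to 0.4, 18 (4.32%). The share was 17.5% of 594 members from 0.4 to 0.5, 62.1% of 153 from 0.5 to 0.7, 94.3% of 53 from 0.7 to 1 and 87.5% of 24 at 1 or more. Over the whole list the shares in these 6 classes were 5.94%, 6.15%, 15.0%, 50.3%, 72.0% and 59.3%, with the top class again below the one before it.

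Width showed the same order. None of the 394 members narrower than 1301 bp, the width of the narrowest cluster in either replicate list, was found in both, against 40.7% of 226 members of 2 to 3 kb and 91.4% of 81 members of 5 kb or more. Over the whole list the shares in these classes were 0%, 43.9% and 96.7%, close to those of the arm. A wide member meets the 1 bp rule more readily by position alone, so part of this order is built into the rule. At 2 to 3 kb, a class chosen after the data had been seen, the medians were 0.51 for 92 members found in both and 0.43 for 34 found in neither, so the difference in enrichment was 0.080 there and 0.13 over all widths.

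**Figure D4:**
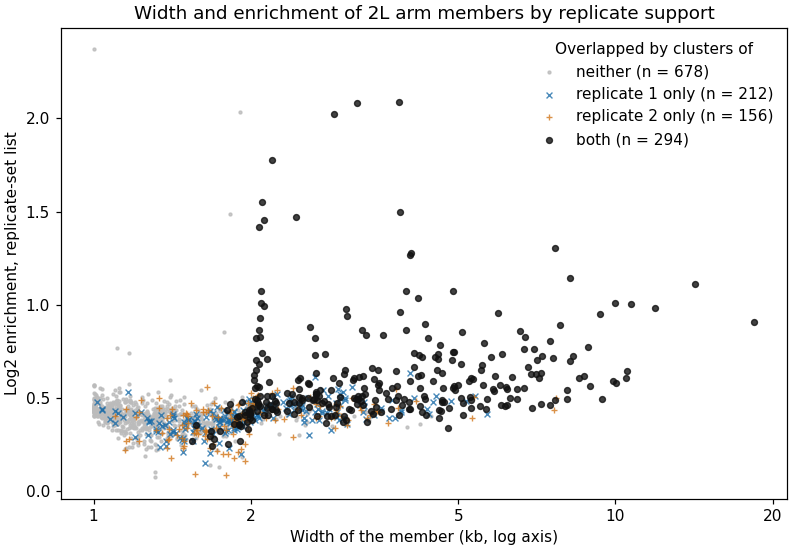
Log2 enrichment in the replicate-set list against width (kb, log axis) for the 1340 enriched members, marked by whether clusters of both replicates, 1 replicate or neither overlap them. Members found in neither crowd below 2 kb, and a narrow column of members found in both rises from widths just above 2 kb.

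Seen from the replicate lists, 316 of the 547 clusters of replicate 1 on the arm (57.8%) overlapped a cluster of replicate 2, and 324 of the 494 of replicate 2 (65.6%) overlapped one of replicate 1. The bases under clusters of both were 41.6% of those under either. This index was 41.6% on the 3L arm, 39.4% on 3R and 42.7% on X, and 75.7% in the proximal 3 Mb of 2L. Of the clusters of each list on the arm, 542 and 489 overlapped a cluster of the replicate-set list, so that list left out 5 clusters of either replicate.

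The most enriched members were few and scattered. A value of 1 or more was reached by 24 members, which lay in 17 of the 20 windows of 1 Mb. Of these, 21 (87.5%) were found in both replicates and 3 in neither, where 59.3% of the 1756 clusters of that value in the whole list were found in both. The 24 made up 1.79% of the members of the arm. The share was 1.94% on the 3L arm, 2.30% on the 3R arm and 4.05% on the X arm, and 15.8% in the proximal 3 Mb of 2L.

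The highest member found in both replicates was 2L:538889-542741, in the second of the runs described above. It spanned 3853 bp with a log2 enrichment of 2.09 in the replicate-set list, 1.84 in replicate 1 and 3.04 in replicate 2. The next, 2L:4948357-4951555, had 2.08, with 2.04 and 2.40 in the replicates. 2L:7533991-7536874 had 2.02, with 2.09 and 2.23. These 3 sites, 2.88 to 3.85 kb wide, stood above all other members found in both.

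The 7 members ranked next had values from 1.78 down to 1.30. The fourth, 2L:14705281-14707480, had 1.47 in replicate 1 and 2.08 in replicate 2. The fifth, 2L:7280573-7282678, had 1.26 and 1.84, and the sixth, 2L:19886552-19890419, had 1.30 and 1.93. In all 3, replicate 2 was higher by more than 0.5.

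The seventh, 2L:5175873-5178315, gave closer values of 1.38 and 1.50. The eighth, 2L:15497905-15500027, lay in the bare stretch between 15 and 16 Mb and had 1.04 and 1.81. The ninth, 2L:14093783-14095857, had 0.96 and 1.74. The tenth, 2L:3251713-3259372, was of another kind, a block of 7660 bp with 1.28 and 1.35. Replicate 2 had the higher value at each of the 10. Among regions overlapped by exactly 1 cluster of each replicate, it was higher in 58.1% on the arm and 55.8% over the whole list. Of the 19 such members on the arm with a replicate-set value of 1 or more, which include these 10, it was higher in 15.

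The 10 widest members were broader blocks with values from 0.50 to 1.11. These lay below the 10 highest members, which were chosen by value, but above the median of all members, 0.42. All 10 of the widest were found in both replicates. The widest, 2L:19934445-19952904, spanned 18.5 kb near the proximal limit at a log2 enrichment of 0.91. Replicate 1 held 2 clusters there, of 0.88 and 1.23, and replicate 2 held 3, of 0.59, 0.65 and 0.81. The second, 2L:477092-491326, spanned 14.2 kb at the distal end with 1.11. Replicate 1 had 0.47 and 1.20 there, and replicate 2 had 0.70, 1.05 and 2.23, the last over the 2166 bp at its proximal side.

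The third widest, 2L:19136470-19148367, spanned 11.9 kb with 0.98, and it was 99.2% covered by 1 cluster of replicate 1 (1.11) and 87.7% by 2 clusters of replicate 2 (0.91 and 0.83). The fourth, 2L:2160941-2171658, was a single block of 10.7 kb in both replicates, with 1.09 and 1.04. The eighth, 2L:12002809-12012808, spanned 10.0 kb in the middle of the arm with 1.01, as 1 cluster of 1.17 in replicate 1 and 2 clusters of 0.82 and 1.06 in replicate 2. Of the 5 blocks described, the 10.7 kb one was a single cluster in both replicates, and the other 4 were divided into more clusters in replicate 2 than in replicate 1.

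The others of the 10 widest had values from 0.50 to 0.65, and in 2 of them replicate 1 had the more clusters, with 4 against 2 in 2L:543056-553540 and 3 against 2 in 2L:19450616-19460659. The remaining 3 were 2L:819976-830494, 2L:5165842-5175730 and 2L:188890-198299. The last 2 of these had the least cover of the 10 by the mean of the replicates. Clusters of replicates 1 and 2 lay over 64.9% and 39.0% of 2L:5165842-5175730, and over 39.3% and 67.2% of 2L:188890-198299. Within 2L:5165842-5175730, replicate 2 had a cluster of 1524 bp with 2.15 toward the proximal side, and the only cluster of replicate 1 in the member (0.71) ended just inside it. The seventh most enriched of the members found in both replicates began close by on that side.

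Among narrow members, those from 2.0 to 2.2 kb wide most often had a high value. Of the 81 members from 2.0 to 2.2 kb wide, 13 (16.0%) had a value of 0.7 or more. All 13 were found in both replicates, as were 71 of the 77 members of any width that reached 0.7. In the class from 1.8 to 2.0 kb 2 of 132 members (1.52%) reached that value, and in the class from 2.2 to 2.4 kb 1 of 32 (3.13%). In the classes from 2.4 to 2.6, 2.6 to 2.8 and 2.8 to 3.0 kb the shares were 4.65%, 8.82% and 2.78%. Members of any width with a value from 0.7 to 1 had a median width of 4380 bp. The 13 were 2051 to 2154 bp wide and lay in 11 of the 20 windows of 1 Mb. Over the whole list 28.1% of clusters from 2.0 to 2.2 kb reached 0.7, against 14.7% and 19.3% in the neighbouring classes. In the classes from 2.4 to 2.6, 2.6 to 2.8 and 2.8 to 3.0 kb the whole-list shares were 23.4%, 19.3% and 26.9%. The class from 2.0 to 2.2 kb thus stood out less over the whole list than on the arm. The width classes were chosen after the values had been seen.

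Many of the same narrow members had a higher value in replicate 2. Of the 294 members found in both replicates, 229 matched exactly 1 cluster in each, and the difference of replicate 2 minus replicate 1 had a median of 0.03 and a range from -0.53 to 1.21 on the log2 scale. It exceeded 0.5 in 15 members and fell under -0.5 in 1. Of the 15, 11 were narrower than 2.5 kb, with widths from 2031 to 2200 bp. The difference was largest at 2L:538889-542741 (1.84 and 3.04), followed by 2L:5365071-5367121 (0.25 and 1.43) and 2L:18858283-18860375 (0.56 and 1.56).

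None of the 30 matched members of 5 kb or more differed by over 0.5, and their median difference was -0.04. In all, 74 members of that width were found in both replicates. Those not matched to 1 cluster in each were not compared in this way. Among the 82 matched members narrower than 2.5 kb the median difference was 0.06, and replicate 2 was higher in 60. Of all 229 matched members it was higher in 133. Over the whole list 129 of 2524 matched clusters (5.11%) were higher by over 0.5 in replicate 2 and 24 (0.95%) in replicate 1, and the share on the 2L arm was 6.55%. Among matched clusters narrower than 2.5 kb, replicate 2 was higher by over 0.5 in 11 of 82 (13.4%) on the 2L arm. Over the whole list it was so in 67 of 702 (9.54%). The share of these narrow clusters was 13.1% on the 3R arm and 13.5% on the X arm. On the 3L arm it was 11 of 100, and in the proximal 3 Mb of 2L 1 of 12. The pattern was therefore present on other sequences too, and whether 2L differs was not tested.

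Where narrow members differed in level between the replicates, their cluster edges often agreed in position. For the 11 narrow members with a difference over 0.5, the larger of the 2 shifts between the replicates' cluster edges had a median of 92 bp and was at most 100 bp in 8. At 2L:14705281-14707480 the edges lay 6 and 17 bp apart. For the other 71 matched members narrower than 2.5 kb the median was 235 bp, and 18 lay within 100 bp. Over all 229 matched members the median was 393 bp. Wider members with such a difference agreed less in position. The 4 of 2.5 to 5 kb with replicate 2 higher by over 0.5 had shifts of 88, 449, 655 and 1197 bp. The 1 member with replicate 1 higher by over 0.5 had a shift of 739 bp.

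**Figure D5:**
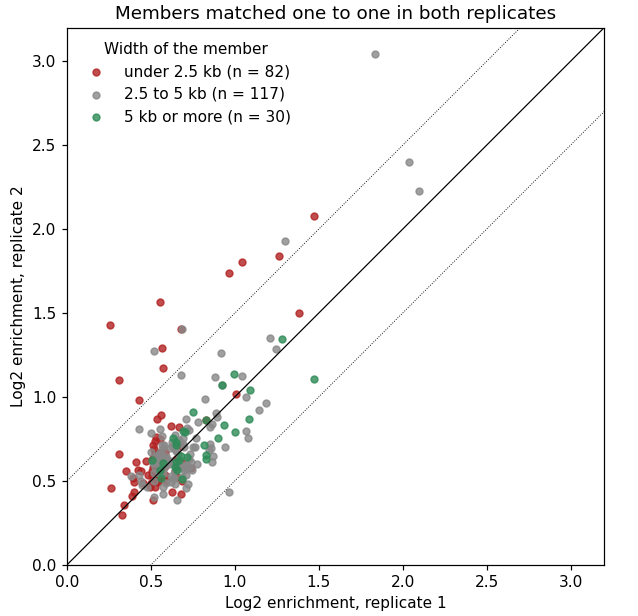
Log2 enrichment in replicate 2 against replicate 1 for the 229 members matched to 1 cluster in each, coloured by width. The solid line marks equal values and the dotted lines a difference of 0.5. Of the 15 members above the upper line, 11 are narrower than 2.5 kb, and no member of 5 kb or more lies outside the lines.

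Values in the replicate-set list were mostly below those of the replicates. Of the 229 matched members 156 had a replicate-set value under both replicate values, 72 lay between them and 1 lay above. Among the 19 matched members with a replicate-set value of 1 or more, 17 lay between. Across the 229 members Pearson's r between the replicates was 0.73 and Spearman's rho 0.50. Both are across regions of the same pair of libraries.

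The 3 members with a value of 1 or more that neither replicate held were narrow. 2L:13241960-13242963 had the highest value of all members, 2.37, over 1004 bp. The same value was listed 27 times in the replicate-set list, and lies 2 log2 units above the most frequent value on the arm, 0.37, which 26 members share. 2L:10593166-10595076 had 2.03, a value listed 3 times, over 1911 bp. 2L:9973724-9975546 had 1.49, listed 7 times, and ended just before the member 2L:9975563-9979593, which both replicates held at 1.25 and 1.29. These 3 were chosen after their values had been seen.

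Repeated values were common among members without support. They made up 432 of the 678 members found in neither replicate (63.7%) and 44 of the 294 found in both (15.0%). How many reads lie behind a repeated value is unknown. Of the 10 highest members found in both, only 2L:5175873-5178315 had a value listed more than once.

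The depleted member, 2L:13215053-13216747, had a log2 value of -0.12 over 1695 bp. Replicate 1 had no cluster there. Replicate 2 had an enriched cluster over 85.1% of it, with 0.09, the lowest value of that list on the arm. The highest member named above, 2L:13241960-13242963, began 25212 bp away on its proximal side. The members just inside and just outside the limit were like each other: 2L:20003060-20005500 had 0.38 and the first cluster past it, 2L:20015101-20016285, had 0.30, and neither was found in a replicate.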

How the data were processed

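ChIP and input libraries of Su(var)3-7 were aligned by the authors; the submitters' processing notes name Bowtie 0.12.7. The sequence lengths are those of FlyBase release 5, per the file headers. For the cluster caller, its thresholds and the way replicates were combined, nothing is stated in the sources used here. Deposited lists hold 1 value per cluster, which the authors made and which was read as log2 enrichment over input from the values themselves. Depth is unknown. Input libraries were not analysed here on their own, and 3 lists were used: 1 per ChIP replicate and 1 for the replicate set. Cover, overlap (1 bp unless stated), runs and medians were computed from these lists in Python 3.11.15 with pandas 2.3.3 and scipy 1.17.1, after the interval code was tested on simulated data. Windows of 1 Mb and 100 kb were used, the last of each extended to the limit.

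Named regions are the 10 highest members found in both replicates, the 10 widest, the first and last, the 5 runs with most covered bases, the longest gap, the extreme windows and the 3 members with the largest replicate differences. Others are said to be chosen after their values were seen. The members and lists were chosen with earlier results of these data known. Regions are given by position only, because the gene table used here is on release 6 and no coordinates were carried between releases.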

Additional observations from a re-analysis of the deposited data

How the results depend on the processing

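No paired analysis was possible because ChIP and input, the groups that share replicate numbers, were not compared, and only lists of the ChIP libraries were used. Comparisons between regions of the genome were made within each replicate. Cover of the arm, 6.03% in the mean of the replicates, was 14.6% in the replicate-set list and 2.02% when only clusters at or above the median value of each list were kept. The proximal 5 Mb over the distal 15 Mb, 1.42, was 1.12 in the replicate-set list, 1.67 with the higher-valued clusters and 0.627, an alternative chosen later, without the 2 Mb next to the limit. The cover of 2L over that of 3L and 3R, 0.999, was 1.03 in the replicate-set list and 0.943 with the higher-valued clusters. The share of members found in both replicates, 21.9%, was 17.8% when each replicate had to cover at least 50% of the member, 31.1% among members of 1301 bp or more and 56.8% among members at or above the median value of the whole list. The difference in median log2 enrichment between members found in both and in neither, 0.13, was 0.18 among members whose value is listed once and, chosen after the data were seen, 0.080 among members 2 to 3 kb wide. The cause of these shifts was not tested. Leaving out either replicate must move a mean of 2 by less than their SD, so it says nothing about stability. Cover was 6.20% with clusters less than 1 kb apart merged. The proximal over distal ratio was 1.26 by clusters per Mb and 1.59, chosen later, without the most distal 1 Mb. The share found in both was 20.4% among members that start in the distal 15 Mb. The overlap of the replicates, 41.6%, lay from 40.3% to 42.3% under its alternatives. The difference in median enrichment was 0.156 under the 50% rule and 0.145 among members of 1301 bp or more.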
